A study of Homo sapiens with 6 samples.

Results

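The genes described here are 59 cell cycle and DNA replication genes, given as a list of symbols: the cyclins and cyclin-dependent kinases (CDKs), the CDK inhibitors, the retinoblastoma (RB) and E2F families, MYC factors, the proteins that license and copy DNA, and the mitotic kinases. A member was any listed symbol with a row in the deposited count table. Of the 59, 58 had a row among 61155 symbols, and 56 had enough counts to be tested, among 19521 genes tested. FOXM1-AS1 had no row and is not analysed here. CDKN2A and CDKN2C had rows but fell below the filter on low counts.

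RNA was sequenced from undifferentiated H7 cells, an established human embryonic stem cell (hESC) line, in 3 wild-type (WT) and 3 S6K1-/- libraries. S6K1 is the ribosomal protein S6 kinase that acts downstream of mTOR, and the comparison asks how its loss alters gene expression before differentiation. Both groups grew without feeder cells, on Matrigel in TeSR-E8 medium. Nothing in the labels says that libraries of a group came from separate cultures, so that p-values measure only the spread between these libraries, which may be technical. The S6K1-/- cells were edited with CRISPR/Cas9 at a pair of exons of RPS6KB1, the gene for S6K1, and were a single expanded clone, so that genotype and clone cannot be told apart. The labels call these cells a knockdown and give all 6 samples a time of week 5, although the extraction protocol names undifferentiated cells.

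Library totals ran from 21896698 to 24473013 counts. RPS6KB1, the targeted gene, was counted 831, 791 and 777 times in WT and 464, 464 and 438 times in S6K1-/- cells. All 10 markers of pluripotent cells were above 3 counts in every library, and their summed level was 6115 to 6258 CPM (counts scaled to a common library size) in WT and 5808 to 5824 CPM in S6K1-/- cells. At 0.05, 2 of the 10 fell, DNMT3B (log2 fold change -0.35, also past 0.001) and TDGF1 (-0.15), and 2 rose, UTF1 (0.41) and ZFP42 (0.17). The summed levels of mesendoderm markers (18.6 to 22.6 against 17.5 to 18.8 CPM) and of amnion and trophoblast markers (5.68 to 7.20 against 3.72 to 4.14 CPM) were small beside these, and SOX17, HAND1, ISL1 and CGA stayed at or under 3 counts. Mesenchyme markers summed to 88.2 to 90.7 CPM in WT and 26.2 to 30.03 CPM in S6K1-/- cells, most of it COL1A1, while COL3A1, TWIST1, PRRX1 and LUM were at or under 3 counts. Of the markers of neuroectoderm, PAX6 (4.07, 4.39 and 4.95 CPM in WT, 6.86, 7.56 and 8.32 CPM in S6K1-/- cells) and SOX1 (6, 7 and 6 counts, then 16, 17 and 12) rose at 0.05. NES, at 429.6 to 449 CPM in WT and 415 to 431 CPM in S6K1-/- cells, and ZIC1, at 16.8 to 18.7 and 14.7 to 16.7 CPM, had log2 fold changes of -0.06 and -0.14 and did not pass. The pluripotent, amnion and trophoblast and mesenchyme sums did not overlap between groups, whereas the mesendoderm sums did, and the part of these markers in the results on the cell cycle genes was not tested.

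A cell enters the cycle when D and E cyclins with their kinases phosphorylate the RB family, which then releases E2F factors to switch on the genes for DNA synthesis. Origins of replication are licensed when ORC, CDC6 and CDT1 load the MCM helicase, and mitosis begins once cyclin B and CDK1 are active, with the spindle checkpoint holding back chromosome separation until all kinetochores are attached. Pluripotent stem cells are known for a short G1 phase and for cycling with little RB-based restraint.

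The cell cycle genes differed little between the groups. At the adjusted p of 0.001 that the study used, 1 member was called, CDK6, which was higher in S6K1-/- cells (1.21-fold), against 1.42% of all genes tested called higher. No member was called lower at this threshold by edgeR's quasi-likelihood test or by DESeq2's Wald test, against 2.54% of all genes. At an unadjusted p under 0.05, 2 members were lower, BUB1 and MYC (3.57%, against 14.5% of all genes), and 10 were higher (17.9%, against 11.8%). At an adjusted p under 0.05, 5 members rose (CDK6, CCND2, CDC6, TOP2A and RBL2), against 5.47% of all genes called higher, and 1 fell (BUB1), against 8.31% called lower. The counts were 3 higher and 2 lower when libraries were scaled by their totals alone, and 5 higher and 2 lower with upper quartile scaling. Of the 56 members tested, 36 had a log2 fold change above 0 and 20 below. In 18 of them (32.1%) the WT and S6K1-/- libraries did not overlap in level, against 30.7% of all genes tested. With both directions pooled, the members' share was thus near this background. By direction, S6K1-/- was higher in 15 of them (26.8% of members, against 14% of all genes) and lower in 3 (5.36%, against 16.7%). Overlap was scored only with the scaling used for edgeR's test, so how these counts depend on scaling was not examined.

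**Figure D1:**
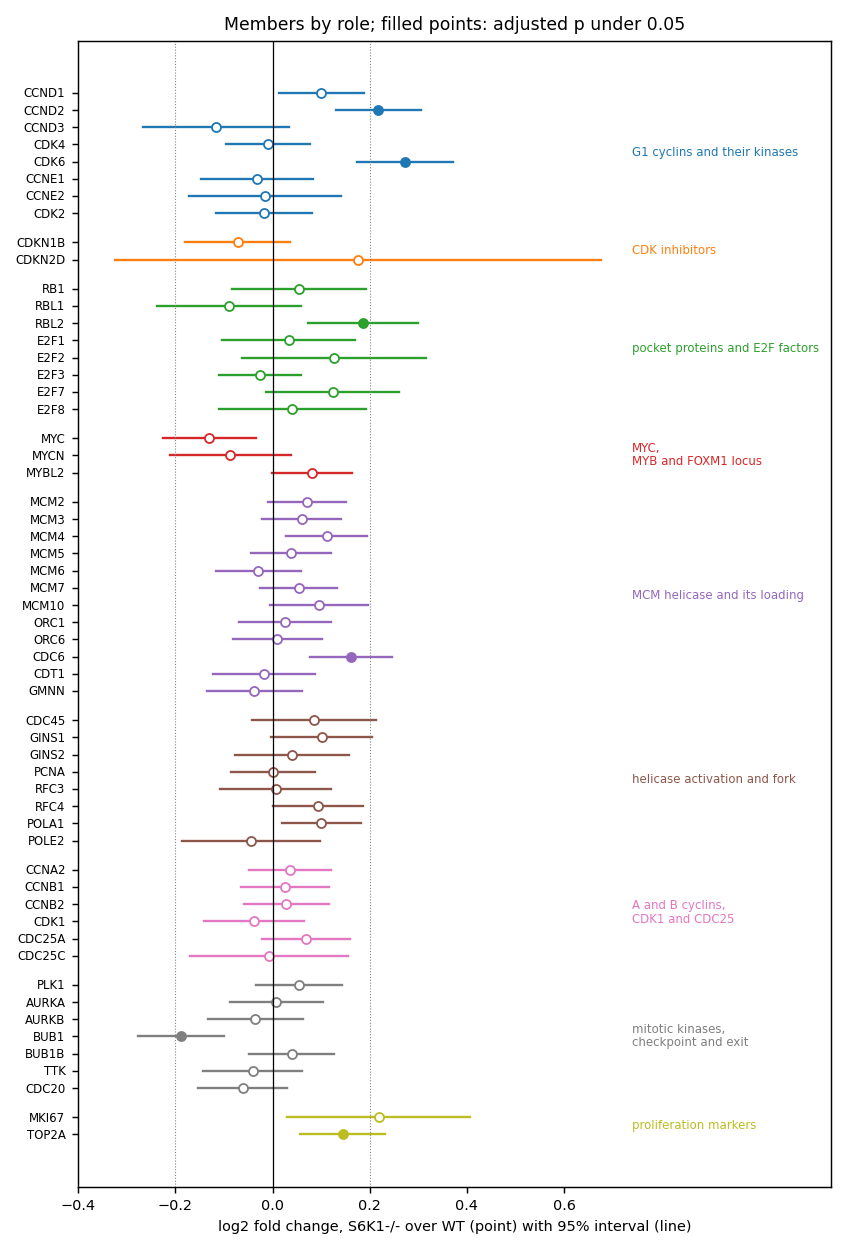
The log2 fold change of S6K1-/- over WT cells (horizontal axis) is plotted for the 56 members tested, grouped and coloured by role, with lines for the 95% interval and dotted lines at -0.2 and 0.2. The 6 filled points are the members past an adjusted p of 0.05, and CDK6 lies farthest to the right at 0.27.

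The members' changes were also small in size. Their log2 fold changes ran from -0.19 for BUB1 to 0.27 for CDK6 with a median of 0.03, beside a median of -0.0024 over all genes tested and 0.01 over the 10484 genes averaging 10 CPM or more. Among those 10484 genes, 2.37% were called lower and 1.83% higher at 0.001, 7.06% lower and 7.38% higher at 0.05, and 32.5% did not overlap between groups, 18.1% with S6K1-/- higher and 14.4% with it lower. At an unadjusted p under 0.05, 12.5% of these genes were lower and 15.6% higher. The 95% interval of the log2 fold change lay within -0.2 to 0.2 for 40 of the 56 members, whose median standard error was 0.045. Since the samples are bulk RNA, fewer cells in a phase and less RNA per cell cannot be told apart.

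**Figure D2:**
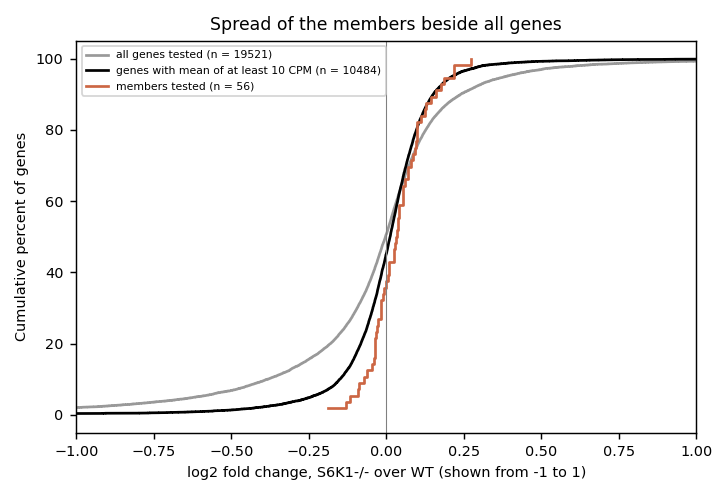
The cumulative percent of genes (vertical axis) is drawn against the log2 fold change of S6K1-/- over WT cells (horizontal axis, shown from -1 to 1) for all 19521 genes tested, for the 10484 averaging 10 CPM or more and for the 56 members tested. The curve of the members lies between -0.19 and 0.27, inside the span of both others.

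Among the G1 cyclins and their kinases, 2 of 8 rose at 0.05 (25%, against 5.47% of all genes and 7.38% of those averaging 10 CPM or more). CDK6, a kinase partner of the D cyclins, was at 86.6, 84.9 and 94.6 CPM in WT and at 110, 107 and 105 CPM in S6K1-/- cells (CPM scaled by TMM, edgeR's trimmed mean of M values). Every S6K1-/- library lay above every WT library. The log2 fold change of CDK6 was 0.27 ± 0.046 (SE, n = 3 per group), with an adjusted p of 0.000796 in edgeR's quasi-likelihood test, adjusted by Benjamini-Hochberg over all genes. CDK6 passed 0.05 under all 14 alternatives and 0.001 under 6 of them. When each library was left out in turn, its adjusted p in edgeR's test ran from 0.000407 to 0.00673, and it stayed under 0.001 only without WT library 3. CDK6 (chromosome 7, 92604921 to 92836573, minus strand, GRCh38) shares 0.703% of its exonic bases with CDK6-AS1 on the other strand.

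CCND2, which encodes cyclin D2, was at 197, 193 and 209 CPM in WT and at 229, 235 and 233 CPM in S6K1-/- cells. The groups did not overlap, and the 3 S6K1-/- libraries were close together. CCND2 rose by 0.22 ± 0.041 on the log2 scale (SE, n = 3 per group; 1.16-fold; adjusted p = 0.00200, edgeR's quasi-likelihood test) and passed 0.05 under all 14 alternatives. CCND2 lies on chromosome 12 (4269771 to 4305353, plus strand) and shares 12.5% of its exonic bases with ENSG00000285901, a gene model on the same strand, and 2.03% with CCND2-AS1 on the other strand. How counts were divided between such genes is not stated, so part of these counts could belong to either.

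The other D cyclins did not pass the test. CCND1, cyclin D1, was at 301, 295 and 291 CPM in WT and at 317, 329 and 305 CPM in S6K1-/- cells, with no overlap but an adjusted p of 0.123 in edgeR's test. CCND3, cyclin D3, was at 30.3, 34.2 and 29.0 CPM in WT and at 29.4, 30.2 and 26.6 CPM in S6K1-/- cells, and these groups overlapped (log2 fold change -0.12, 95% interval -0.27 to 0.03). Of all counts on the 3 D cyclins, CCND2 took 37.0% to 39.5% in WT and 39.6% to 41.2% in S6K1-/- libraries, while CCND1 took 55.0% to 56.9% and 54.1% to 55.3%. CCND3 took the rest, 5.47% to 6.55% in WT and 4.72% to 5.11% in S6K1-/- libraries. CCND1 was thus the main D cyclin by counts in every library of both groups, and the shares of CCND1 overlapped between groups while those of CCND2 and CCND3 did not.

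CDK4, the other D cyclin kinase, was at 108, 114 and 106 CPM in WT and at 107, 109 and 109 CPM in S6K1-/- cells. These values overlapped, and the 95% interval of the ratio of S6K1-/- to WT ran from 0.935 to 1.06. CDK4 shares 44.2% of its exonic bases with TSPAN31 on the other strand, so that its count depends on a strand setting not named in the sources used here. CCNE1, which encodes cyclin E1, the partner of CDK2 at the start of S phase, was at 39.2, 41.3 and 36.8 CPM in WT and at 38.2, 38.8 and 37.7 CPM in S6K1-/- cells. CDK2 itself was at 51.0, 52.9 and 50.4 CPM in WT and at 49.5, 50.2 and 52.9 CPM in S6K1-/- cells. The libraries of both groups were interleaved for these genes, with ratio intervals of 0.903 to 1.06 for CCNE1 and 0.923 to 1.06 for CDK2. CCNE2, the gene for cyclin E2, had a ratio interval of 0.887 to 1.10, and 37.0% of its exonic bases are shared with INTS8.

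**Figure D3:**
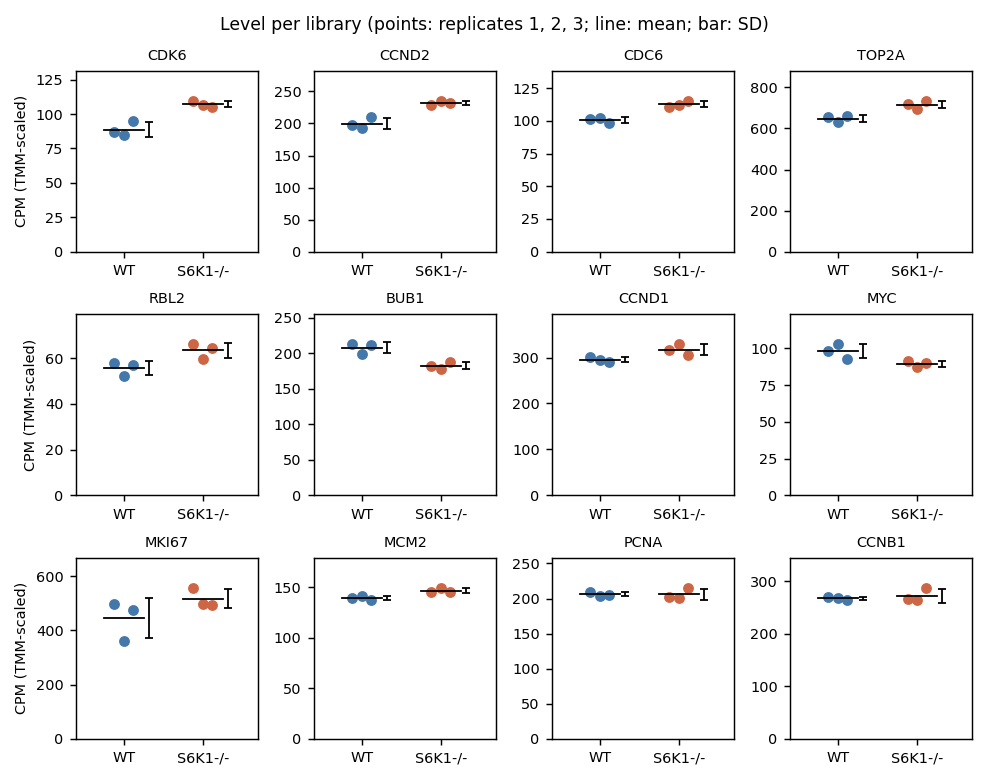
TMM-scaled CPM (vertical axes, from 0) of 12 members is plotted for each of the 3 WT and 3 S6K1-/- libraries, with lines for the mean and bars for the SD. The S6K1-/- points lie above the WT points for CDK6, CCND2, CDC6, TOP2A and RBL2 and below them for BUB1, and WT library 2 is low for MKI67 at 359 CPM.

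Of the 4 CDK inhibitors listed, 2 had enough counts to be tested, and neither passed 0.05 in edgeR's test, unadjusted or not, or in DESeq2's Wald test. CDKN1B encodes p27, which holds back cyclin E with CDK2, and was at 45.7, 44.1 and 45.4 CPM in WT and at 43.7, 40.4 and 44.6 CPM in S6K1-/- cells. S6K1-/- library 3 lay above WT library 2, so the groups overlapped, and the 95% interval of the ratio was 0.883 to 1.03. CDKN2D, an inhibitor of CDK4 and CDK6, was the least abundant member tested, at 25, 42 and 27 counts in WT and 40, 37 and 25 counts in S6K1-/- cells. The 95% interval of its ratio was wide, from 0.799 to 1.60, so that a change within these bounds cannot be told from no change. CDKN2A, whose products p16 and ARF act on CDK4 and CDK6 and on p53, had 4, 5 and 2 counts in WT and 1, 0 and 1 in S6K1-/- cells. The summed counts of CDKN2A were 11 and 2, a ratio of 0.190 with an exact 95% interval of 0.0204 to 0.869 that covers counting error only. CDKN2C, another inhibitor of the D cyclin kinases, had 1 count in a single WT library and 0 elsewhere, so no comparison was made. The 3 inhibitors of the CDKN2 family thus had at most 42 counts in any library of either group.

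Among the RB family and the E2F factors, 1 of 8 rose (12.5%, against 5.47% of all genes and 7.38% of those averaging 10 CPM or more). RBL2 encodes p130, the RB relative that binds E2F sites in resting cells, and was at 57.9, 52.2 and 57.2 CPM in WT and at 66.1, 59.7 and 64.5 CPM in S6K1-/- cells. The lowest S6K1-/- library lay above the highest WT library. RBL2 rose by 0.19 ± 0.053 on the log2 scale (SE, n = 3 per group; adjusted p = 0.0285 in edgeR's test). Its adjusted p was over 0.05 with library totals alone (0.0511) and without WT library 2 (0.0926), S6K1-/- library 1 (0.136) or S6K1-/- library 3 (0.0811). RBL2 shares 7.51% of its exonic bases with AKTIP and 8.89% with ENSG00000279344, both on the other strand.

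RB1, the retinoblastoma gene, was at 26.8, 28.0 and 31.1 CPM in WT and at 28.7, 29.4 and 31.1 CPM in S6K1-/- cells. E2F1, an activator of S phase genes, was at 50.7, 49.1 and 44.6 CPM in WT and at 45.1, 53.7 and 49.0 CPM in S6K1-/- cells. Both genes overlapped between groups, with ratio intervals of 0.943 to 1.14 for RB1 and 0.930 to 1.13 for E2F1. RBL1, which encodes p107, and the activators E2F2 and E2F3 had log2 fold changes of -0.09, 0.13 and -0.03. The repressors E2F7 and E2F8, which switch off E2F targets late in the cycle, had log2 fold changes of 0.12 and 0.04. None of these 5 passed 0.05, and E2F3 was the only one of them without overlap, its S6K1-/- libraries being 68.2 to 68.8 CPM and its WT libraries 69.3 to 70.3 CPM.

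No MYC or MYB factor passed 0.05 in edgeR's test or DESeq2's Wald test, and MYC was past 0.05 unadjusted. MYC, a transcription factor that drives growth and cell cycle entry, was at 98.3, 103 and 93.0 CPM in WT and at 91.2, 87.3 and 90.2 CPM in S6K1-/- cells. The groups did not overlap, and the log2 fold change of -0.13 ± 0.044 (SE, n = 3 per group) had an adjusted p of 0.0679 in edgeR's test. It was past 0.05 with library totals alone (0.0349), with upper quartile scaling (0.0461) and without WT library 3 (0.0468). MYCN, its relative in stem and neural cells, was at 56.0, 59.1 and 50.6 CPM in WT and at 53.2, 53.8 and 49.1 CPM in S6K1-/- cells, which overlapped. MYBL2, the B-MYB factor that prepares mitotic genes for activation, was at 206 to 215 CPM in WT and at 219 to 227 CPM in S6K1-/- cells, without overlap, and its adjusted p in edgeR's test was 0.196.

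Among the 12 genes of the MCM helicase and its loading, 1 rose (8.33%, against 5.47% of all genes and 7.38% of those averaging 10 CPM or more). CDC6, the loader that binds ORC at origins, was at 102, 103 and 98.4 CPM in WT and at 111, 112 and 115 CPM in S6K1-/- cells. The groups were well apart beside their SDs of 2.16 and 2.26 CPM. CDC6 rose by 0.16 ± 0.039 on the log2 scale (SE, n = 3 per group; 1.12-fold; adjusted p = 0.0118, edgeR's quasi-likelihood test), and passed 0.05 in 13 of 14 alternatives, with an adjusted p of 0.0516 without WT library 3. CDC6 lies on chromosome 17 (40287879 to 40304657, plus strand).

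The 6 subunits of the MCM2 to MCM7 helicase, which unwinds DNA at the fork, did not pass edgeR's test one by one. MCM4 was past 0.05 unadjusted (16.7% of the 6, against 11.8% of all genes higher). MCM2 was at 139, 141 and 137 CPM in WT and at 145, 149 and 145 CPM in S6K1-/- cells. MCM4 was at 427, 434 and 432 CPM in WT and at 476, 452 and 469 CPM in S6K1-/- cells, with a log2 fold change of 0.11 (95% interval 0.03 to 0.19) and an adjusted p of 0.0746 in edgeR's test. Every S6K1-/- library was above every WT library in 5 of the 6 subunits, which is 83.3% against 14% of all genes tested and 18.1% of those averaging 10 CPM or more. In MCM6, the exception, the groups overlapped. In MCM5 they were barely apart, with WT libraries up to 194.9 CPM and S6K1-/- libraries from 195.2 CPM. The TMM factors were 1.005 to 1.011 in WT and 0.989 to 0.995 in S6K1-/- libraries, and overlap was not scored with other scalings. The sizes were small, with log2 fold changes from -0.03 for MCM6 to 0.11 for MCM4 and all 6 intervals within -0.2 to 0.2. DESeq2's Wald test called MCM4 at 0.05 (adjusted p = 0.0236). The other loading factors ORC1, ORC6, CDT1 and GMNN, the last an inhibitor of CDT1, overlapped between groups, with log2 fold changes of 0.03, 0.01, -0.02 and -0.04. MCM10, which joins the helicase as it starts, had no overlap, a log2 fold change of 0.09 and an adjusted p of 0.219 in edgeR's test.

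No gene of the 8 for helicase activation and the fork passed 0.05 in edgeR's test, and DESeq2's Wald test called none. In edgeR's test 2 were past 0.05 unadjusted, both higher in S6K1-/- cells. This was 25%, against 11.8% of all genes and 15.6% of those averaging 10 CPM or more. PCNA, the sliding clamp that holds polymerases on DNA, was at 209, 203 and 206 CPM in WT and at 203, 201 and 215 CPM in S6K1-/- cells. Its group means were 206 CPM in both, and the 95% interval of the ratio was 0.943 to 1.06. POLA1, the catalytic subunit of the polymerase that starts new strands, was at 114, 111 and 112 CPM in WT and at 122, 118 and 121 CPM in S6K1-/- cells. POLA1 and RFC4, a subunit of the complex that loads PCNA, were the 2 genes of this group without overlap. They made up 25% of it, against 30.7% of all genes in either direction and 14% with S6K1-/- higher. Their log2 fold changes were 0.10 and 0.09, with adjusted p-values of 0.100 and 0.187 in edgeR's test. CDC45 and the GINS subunits GINS1 and GINS2, which complete the active helicase, had log2 fold changes of 0.09, 0.10 and 0.04. RFC3 of the clamp loader and POLE2 of the leading strand polymerase had ratio intervals of 0.928 to 1.09 and 0.879 to 1.07.

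The 6 A and B cyclin, CDK1 and CDC25 genes, which drive S phase onward into mitosis, had neither a call nor a separation of the groups, and all 6 intervals lay within -0.2 to 0.2. None of the 6 was past an unadjusted p of 0.05, and DESeq2's Wald test called none of them. CCNB1, the gene for cyclin B1, was at 270, 268 and 265 CPM in WT and at 266, 264 and 288 CPM in S6K1-/- cells. CDK1, its kinase, was at 150, 152 and 158 CPM in WT and at 145, 142 and 161 CPM in S6K1-/- cells. In both genes S6K1-/- library 3 was the highest of all 6 libraries and S6K1-/- library 2 the lowest. The ratio of S6K1-/- to WT had 95% intervals of 0.956 to 1.08 for CCNB1 and 0.907 to 1.05 for CDK1. Cyclins CCNA2 and CCNB2 and the phosphatases CDC25A and CDC25C, which activate CDKs, had log2 fold changes of 0.04, 0.03, 0.07 and -0.0077.

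BUB1, a kinase of the spindle checkpoint at kinetochores, was the 1 member that fell. It was at 212, 199 and 212 CPM in WT and at 182, 177 and 188 CPM in S6K1-/- cells. The highest S6K1-/- library lay below the lowest WT library. BUB1 fell by 0.19 on the log2 scale (SE 0.041, n = 3 per group), to 0.878 of its WT level, with an adjusted p of 0.00620 in edgeR's test, and it passed 0.05 under all 14 alternatives, with adjusted p-values of 0.00143 to 0.0443 when a library was left out. BUB1 lies on chromosome 2 (110637528 to 110678063, minus strand), and no other gene of the annotation shares its exons. The other mitotic genes PLK1, AURKA, AURKB, BUB1B, TTK and CDC20 overlapped between groups, with log2 fold changes from -0.06 for CDC20 to 0.05 for PLK1. BUB1B and TTK, 2 further kinases of the same checkpoint, had ratio intervals of 0.967 to 1.09 and 0.906 to 1.04. The differences in change between BUB1 and these genes were not tested.

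TOP2A, the topoisomerase that untangles DNA before mitosis and is used as a marker of proliferation, was the member with the highest CPM, at 656, 630 and 659 CPM in WT and at 718, 697 and 734 CPM in S6K1-/- cells. The groups did not overlap, and TOP2A rose by 0.14 ± 0.041 on the log2 scale (SE, n = 3 per group; adjusted p = 0.0282 in edgeR's test). Of the 6 calls it held in the fewest of the 14 alternatives, 9. Its adjusted p was 0.0591 with library totals alone and 0.0662, 0.0541, 0.0965 and 0.0658 without WT library 2, WT library 3, S6K1-/- library 1 and S6K1-/- library 3. MKI67, the gene for the Ki-67 antigen of cycling cells, was at 496, 359 and 476 CPM in WT and at 556, 499 and 493 CPM in S6K1-/- cells. WT library 2 was low, and the groups overlapped, since S6K1-/- library 3 lay below WT library 1. The log2 fold change of MKI67 was 0.22 ± 0.088 (SE, n = 3 per group; adjusted p = 0.124 in edgeR's test) with all libraries. It was 0.09 (adjusted p = 0.329) without WT library 2 and 0.31 (adjusted p = 0.0342) without WT library 1.

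Levels between genes were compared as CPM per kilobase of merged exon. PCNA was the highest in both groups, at 147 ± 2.13 in WT and 147 ± 5.59 in S6K1-/- cells (SD, n = 3), and CDKN2D the lowest of the members tested, at 0.863 and 0.974. CCNB1 (110), MCM3 (103) and TOP2A (102) followed in WT cells, and in S6K1-/- cells TOP2A (112), CCNB1 (112) and MCM3 (108) did, so that TOP2A moved from rank 4 to rank 2. TOP2A and MCM3 differed by less than the SD of TOP2A in WT cells, as did TOP2A and CCNB1 in S6K1-/- cells. The MCM2 to MCM7 genes, whose products join in equal numbers, ranged in WT from 26.2 for MCM5 to 103 for MCM3 per kilobase, lengths that count every annotated exon of a gene. Of the D cyclins, CCND1 was at 62.1 in WT and 66.6 in S6K1-/- cells, CCND2 at 25.02 and 29.1, and CCND3 at 5.41 and 4.99. CDK4 at 35.3 and 35.1 lay above CDK6 at 7.25 and 8.75 per kilobase in both groups.

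**Figure D4:**
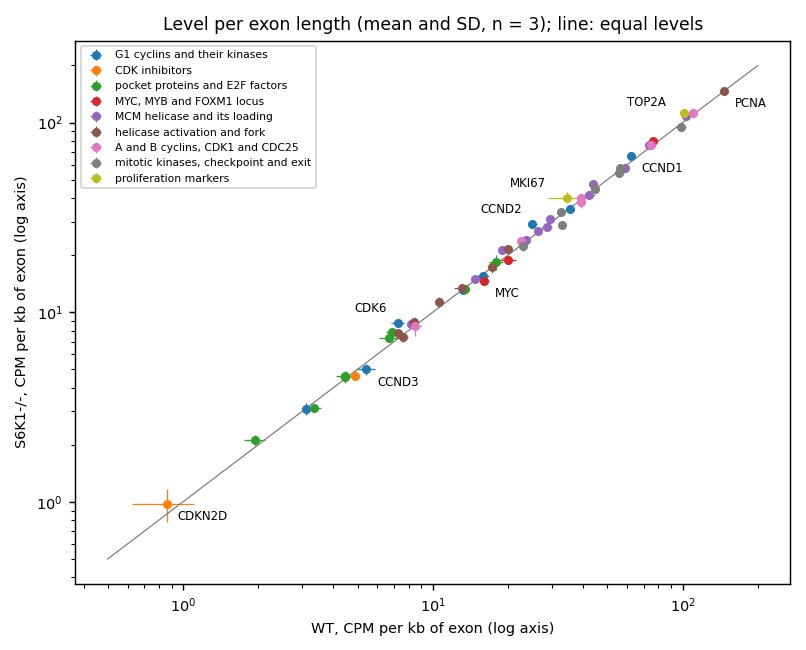
Mean CPM per kilobase of merged exon is plotted for the 56 members tested, WT on the horizontal and S6K1-/- on the vertical log axis, with bars for the SD (n = 3), colours for the role and a line of equal levels. The points follow the line from CDKN2D at 0.863 to PCNA at 147 in WT cells.

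The balance between phases was described with lists of S phase and of G2 and M phase marker genes, some of which are members. The summed level of the S phase list was 4896 to 4975 CPM in WT and 5063 to 5275 CPM in S6K1-/- cells, and that of the G2 and M list was 8647 to 8993 and 8947 to 9280 CPM. Their ratio was 1.80 ± 0.052 in WT and 1.77 ± 0.0090 in S6K1-/- cells (SD, n = 3), and WT library 2, with its low MKI67, had the lowest ratio at 1.74. The S phase sums did not overlap between groups, while the G2 and M sums and the ratios did. Of the 43 S phase genes, 7 rose (16.3%, against 5.47% of all genes) and 1 fell (2.33%, against 8.31%) at 0.05, with a median log2 fold change of 0.07, and 21 (48.8%) had no overlap, 20 of them with S6K1-/- higher (46.5%, against 14% of all genes tested). Of the 53 G2 and M genes, 5 rose (9.43%) and 1 fell (1.89%), with a median of 0.03, and 15 (28.3%, against 30.7% of all genes) had no overlap, 10 with S6K1-/- higher (18.9%, against 14%) and 5 with it lower (9.43%, against 16.7%). Of the genes averaging 10 CPM or more, 7.38% rose and 7.06% fell at 0.05. In 32.5% of them the groups did not overlap, 18.1% with S6K1-/- higher and 14.4% with it lower. Some of the genes in these lists are members, and no test of the lists against other genes was run. The members together took 0.743% to 0.758% of counts in WT and 0.762% to 0.779% in S6K1-/- libraries.

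Beside the members, 261 other genes of the same pathway were listed and 258 tested. Their median level was 68.6 CPM, against 12.4 CPM over all genes tested. At 0.001, UHRF1 and CDK14 rose (0.775%, against 1.42% of all genes) and MXD4 fell (0.388%, against 2.54%). At 0.05, 24 rose (9.30%, against 5.47% of all genes and 7.38% of those averaging 10 CPM or more). At 0.05, 5 fell (1.94%, against 8.31% and 7.06%). The counts at 0.05 were 18 and 8 under scaling by library totals alone and 19 and 8 with upper quartile scaling. UHRF1, which brings the maintenance DNA methyltransferase to newly copied DNA, was at 31.1, 31.3 and 29.8 CPM in WT and at 41.5, 40.6 and 38.7 CPM in S6K1-/- cells. It was well apart between groups and rose by 0.39 ± 0.052 on the log2 scale (SE, n = 3 per group; adjusted p = 0.000104, edgeR's test), a larger fold change than that of any member. CDK14, a kinase partner of cyclin Y, was at 84.1, 81.1 and 92.6 CPM in WT and at 110, 100.4 and 108 CPM in S6K1-/- cells (log2 fold change 0.30, adjusted p = 0.000939 in edgeR's test). MXD4, a repressor that competes with MYC for its partner MAX, was at 22.7, 24.6 and 23.8 CPM in WT and at 18.5 CPM in each S6K1-/- library (log2 fold change -0.36, adjusted p = 0.000898 in edgeR's test). All 3 passed 0.05 under all 14 alternatives, and 0.001 under 13 for UHRF1, 7 for CDK14 and 5 for MXD4.

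By list, and outside the phase marker lists, the other genes gave from 0 to 4 calls in a direction at 0.05, where 5.47% of all genes were higher and 8.31% lower. Of the genes averaging 10 CPM or more, 7.38% were higher and 7.06% lower. Of 24 further G1 genes, CDK14 rose and CCNG2, a cyclin linked to arrest, fell (log2 fold change -0.27). Of 16 genes of the E2F and DREAM complexes, RBBP4 and NFYA rose, each by 0.14, and of 11 genes of the MYC network, MGA, a partner of MAX, rose by 0.30 while MXD4 fell. CLSPN and TIMELESS, which protect stalled forks, rose by 0.17 and 0.13 among 21 origin genes, and UHRF1, POLE and POLD3 rose among 42 fork genes. NEK2, a centrosome kinase, rose by 0.23 and PLK2, a polo-like kinase, fell by 0.31 among 14 genes of mitotic entry. Of 46 spindle and kinetochore genes 4 rose, among them KIF15 (0.25) and KNL1 (0.24), the scaffold that carries BUB1 at the kinetochore. The third of these was KIFC1, at 50, 45 and 37 counts in WT and 226, 80 and 57 in S6K1-/- cells, where S6K1-/- library 1 stood far above the others. Its log2 fold change was 1.51 with that library and 0.71 without it (adjusted p = 0.0148 and 0.0293 in edgeR's test), and its adjusted p was 0.0610 without WT library 3 and 0.116 in DESeq2's Wald test. CCNG2, MGA, POLE and POLD3 were named after their values were seen. Of the 14 alternatives, MGA passed 0.05 in all, KNL1 in 13, RBBP4 in 12, and CCNG2, CLSPN, POLE, NEK2, PLK2 and KIF15 in 11 each. The calls of TIMELESS, POLD3 and NFYA were lost in many, holding in 7, 6 and 3 of the 14, and all 3 were lost with library totals alone and with upper quartile scaling. With a library left out, NFYA had adjusted p-values of 0.0685 to 0.129 in edgeR's test, TIMELESS of 0.0390 to 0.128 and POLD3 of 0.0159 to 0.162.

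In the remaining lists, 4 of 23 condensin and cohesin genes rose (17.4%, against 5.47% of all genes and 7.38% of those averaging 10 CPM or more). Among them were STAG1 (0.23), NCAPD3 (0.17) and SMC4 (0.14). No subunit of the anaphase-promoting complex, which ends mitosis, passed 0.05 among 17 tested by edgeR, and DESeq2's Wald test called none. At an unadjusted p under 0.05 in edgeR's test, 1 was lower (5.88%, against 14.5% of all genes) and 2 were higher (11.8%, against 11.8%). Of 17 checkpoint genes TP53BP1 (0.21) and CLSPN rose and the kinase ATR fell by 0.20. STAG1 and TP53BP1 passed 0.05 in all 14 alternatives and NCAPD3 in 12, whereas SMC4 passed in 8 and ATR in 9, with adjusted p-values in edgeR's test of 0.0188 to 0.142 and 0.00508 to 0.116 when a library was left out. In the phase marker lists, UHRF1 led the S phase genes, and ANP32E (0.20), BUB1 and LBR (0.16) had the smallest p-values among the G2 and M genes.

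What the members share in sequence was read from RefSeq promoter windows on GRCh38.p14, which hold 250 bases before and 50 after the first listed start of each gene. Of the members, 48 had a window, and CCND1, CCND2, CCNE2, CDK2, E2F8, MCM4, MCM5, AURKA, TTK, MYC and FOXM1-AS1 had none in the table. The letters searched on both strands were TTCCCGC or TTGGCGC (E2F-like), TTTGAA or TTCGAA (CHR-like, after the cell cycle homology region that DREAM binds), CCAAT (the NF-Y box) and CACGTG (the E-box of MYC and MAX). An E2F-like match read from the other strand can share letters with an NF-Y box. An E2F-like match was found in 22 of the 48 windows (45.8%, against 9.33% of 27305 promoters in the table), an NF-Y box in 28 (58.3%, against 35.7%), a CHR-like match in 12 (25%, against 16.6%) and an E-box in 9 (18.8%, against 7.43%). In the 11905 windows of genes tested these shares were 14.2%, 36%, 11.3% and 9.71%. The E2F-like and CHR-like shares differed most between roles, and these differences were not tested. In the 18 windows of licensing and fork genes, 72.2% held an E2F-like match, 5.56% a CHR-like match, 66.7% an NF-Y box and 16.7% an E-box, whereas in the 13 windows of mitotic genes, TOP2A and MKI67 included, 23.1% held an E2F-like match, 61.5% a CHR-like match, 84.6% an NF-Y box and 15.4% an E-box.

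Stretches of 120 bases upstream of the start are shown for 4 of the 5 members that passed 0.05 and have a window, and for CDT1 and CCNB2 as examples of the E2F-like and CHR-like patterns, with matches in capitals. They are CDK6 at chr7:92836574-92836693 (minus strand), CDC6 at chr17:40287759-40287878 (plus), TOP2A at chr17:40417897-40418016 (minus), BUB1 at chr2:110678064-110678183 (minus), CDT1 at chr16:88803669-88803788 (plus) and CCNB2 at chr15:59105006-59105125 (plus).
CDK6: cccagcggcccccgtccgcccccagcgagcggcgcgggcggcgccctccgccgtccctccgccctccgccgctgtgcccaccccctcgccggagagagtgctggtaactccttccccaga
CDC6: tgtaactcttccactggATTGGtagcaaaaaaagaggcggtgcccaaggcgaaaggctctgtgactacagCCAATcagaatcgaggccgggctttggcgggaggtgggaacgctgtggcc
TOP2A: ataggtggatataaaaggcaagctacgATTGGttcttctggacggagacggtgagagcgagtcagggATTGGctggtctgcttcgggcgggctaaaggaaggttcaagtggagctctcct
BUB1: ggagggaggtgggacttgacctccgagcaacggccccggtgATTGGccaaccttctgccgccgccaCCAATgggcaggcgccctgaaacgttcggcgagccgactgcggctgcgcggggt
CDT1: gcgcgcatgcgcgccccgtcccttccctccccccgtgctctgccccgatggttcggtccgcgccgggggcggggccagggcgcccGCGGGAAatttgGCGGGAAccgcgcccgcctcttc
CCNB2: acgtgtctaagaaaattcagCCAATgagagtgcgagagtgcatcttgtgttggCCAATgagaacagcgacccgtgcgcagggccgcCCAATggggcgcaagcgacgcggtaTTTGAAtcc
The stretch of CDK6 holds none of the letters searched. CDC6, TOP2A and BUB1 hold 2 NF-Y boxes each. The full windows hold in addition 1 E-box for CDK6, 1 E2F-like match and 1 more NF-Y box for CDC6, 2 CHR-like matches and 2 more NF-Y boxes for TOP2A and 1 CHR-like match for BUB1. CDT1 holds 2 E2F-like matches, both on the other strand and close to the start, and CCNB2 holds 3 NF-Y boxes with a CHR-like match after them. A match describes letters in the window, not a bound site. RBL2, the fifth called member with a window, held 1 CHR-like match there and is not printed.

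**Figure D5:**
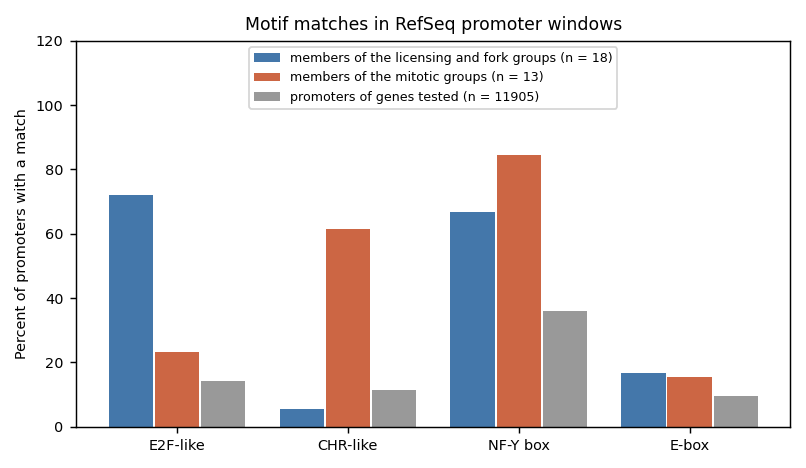
The percent of RefSeq promoter windows with at least 1 match (vertical axis, bars from 0) is shown for 4 motifs in the licensing and fork members (n = 18), the mitotic members (n = 13) and the genes tested (n = 11905). E2F-like matches are most common in the licensing and fork members (72.2%) and CHR-like matches in the mitotic members (61.5%).

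The median log2 fold change was 0.03 for the 22 members tested with an E2F-like match and 0.04 for the 24 without, and 0.00098 for the 12 with a CHR-like match and 0.04 for the 34 without. It was 0.04 for the 28 members with an NF-Y box and -0.00041 for the 18 without, and 0.05 for the 8 with an E-box and 0.03 for the 38 without. All these medians were small beside the members' range of -0.19 to 0.27, and no test was run. Over all genes tested with a window, the medians were 0.0018 for 1685 genes with an E2F-like match and -0.0065 for 10220 without. The members lay on many chromosomes, with at most 6 on one, chromosome 20, and the median log2 fold change of all genes tested on a chromosome ran from -0.0317 on chromosome 19 to 0.0286 on chromosome 21 among autosomes and X.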

How the data were processed

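Per the labels and the study's methods, the authors trimmed reads of a stranded mRNA kit with Trim Galore 0.6.5, aligned them to GRCh38 with Bowtie2 2.4.5 and counted them with featureCounts. The deposited counts are whole numbers per gene symbol without normalization. Because Bowtie2 makes no spliced alignments, reads that span exons may have been lost. Which annotation release and strand setting were used is not given in the sources used here. The authors' own comparison made with DESeq2 1.37.4 (fold changes, standard errors and p-values) was not used.

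Genes were kept with edgeR's filterByExpr, scaled by TMM and compared by genotype alone with edgeR 4.0.16's quasi-likelihood test (R 4.3.3). Benjamini-Hochberg adjustment was over all 19521 genes tested, with thresholds of 0.001, the study's, and 0.05. Intervals are 95% intervals from that fit. Changes and CPM are TMM-scaled unless stated, exonic lengths come from GENCODE 44, and steps were tested on simulated data. The 14 alternatives included DESeq2 1.42.0's Wald test. The members, gene lists and markers were chosen with earlier results of these data known, and the summed level of 1 marker list is not reported here. Values in every library are given for members past 0.05 and for a fixed set of 19 members, and of each other list at most 3 genes with the smallest p among those past 0.001, or past 0.05 where none passes 0.001. MCM4, POLA1, CDKN2A, CDKN2C and CDKN2D were also given per library after their values were seen, and the other members by change or range. Replicates within a group differed by 2.24 to 4.53 in chi-square per degree of freedom, more than sampling noise alone.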

Additional observations from a re-analysis of the deposited data

How the results depend on the processing

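No log2 fold change of a member reversed a call. Of the 6 members called at 0.05, CDK6, CCND2 and BUB1 passed in all 14 alternatives, and of the 50 not called, MYC, MCM4 and MKI67 passed in at least 1. Over 784 pairs of member and alternative, 17 changed their call, and the causes were not tested. At 0.001, members higher (1) numbered 0 with upper quartile scaling, library totals alone and the replicate block, 2 with DESeq2's Wald test, 3 with no filter on low counts and 0 to 1 with a library left out, and members lower (0) numbered 1 with no filter. At 0.05, members lower (1) numbered 2 with upper quartile scaling and library totals alone and 1 to 2 with a library left out, and members higher (5) numbered 3 with library totals alone and 3 to 6 with a library left out. The members' median of 0.0345 was 0.0217 with upper quartile scaling, 0.0140 with library totals alone and 0.0265 to 0.0498 with a library left out. Over all genes, with no filter 982 were lower and 591 higher at 0.001, and with DESeq2's Wald test 975 were lower at 0.05. With a library left out, 313 to 445 were lower and 175 to 235 higher at 0.001, and 1171 to 1461 lower and 693 to 950.0 higher at 0.05, the fewest without S6K1-/- library 3 or 1. Of the other pathway genes at 0.001, 0 were lower with DESeq2's size factors, its Wald test and the replicate block and 4 with no filter (1 in the main analysis), and 1 was higher with upper quartile scaling and library totals, 3 with the replicate block, 4 with the Wald test and 10 with no filter (2 in the main analysis). At 0.05, 8 were lower with upper quartile scaling and library totals, 2 with the Wald test and 9 with no filter (5 in the main analysis). With a library left out these ranges were 0 to 1 and 0 to 2 at 0.001, and at 0.05 1 to 6 lower, fewest without WT library 3 or S6K1-/- library 2, and 10 to 26 higher, fewest without S6K1-/- library 1. The ratio of phase lists between groups (0.983) ran from 0.967 to 0.992 with a library left out.

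Same-numbered libraries correlated in their deviations from the group means by 0.197, 0.103 and 0.0822. Other pairs correlated by -0.254 (WT library 2 with S6K1-/- library 1) to 0.132 (WT library 2 with S6K1-/- library 3). These few weak correlations cannot settle whether the numbers pair the libraries. With the replicate block, 6 members were higher and 1 lower at 0.05, MKI67 being added (adjusted p = 0.0303 in edgeR's test). With 3 libraries a group and a single clone, changes under about 0.2 on the log2 scale were called for only a few members, and members with few counts, such as CDKN2D, had wide intervals.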

Other observations

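FOXM1, the activator of mitotic genes on whose locus FOXM1-AS1 lies, is not a member and was named after its values were seen. It was at 166, 166 and 167 CPM in WT and at 178, 167 and 162 CPM in S6K1-/- cells, which overlapped, and the 95% interval of the ratio was 0.954 to 1.08. CDKN1A, the gene for the CDK inhibitor p21, was likewise named after its values were seen. It was at 55.5, 54.1 and 60.6 CPM in WT and at 47.4, 50.9 and 53.0 CPM in S6K1-/- cells, without overlap, and its log2 fold change of -0.17 had an adjusted p of 0.0528 in edgeR's quasi-likelihood test. CDKN2B, the neighbour of CDKN2A, had 6, 3 and 3 counts in WT and 0 in every S6K1-/- library, and the exact 95% interval of the ratio, which covers counting error only, reached up to 0.375.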
